A study of Mus musculus with 21 samples.

Results

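The genes described here are 10 transcripts of the circadian clock, namely the Period genes Per1, Per2 and Per3, the Cryptochrome genes Cry1 and Cry2, the REV-ERB genes Nr1d1 and Nr1d2, and the PAR bZIP genes Dbp, Tef and Hlf. They were taken by symbol from the 48474 rows of a bulk RNAseq count table, and 10 of 10 were found. The list was chosen with the difference between genotypes known, so for these genes the difference between TG and WT mice is a description and carries no test. Neocortex was sequenced from 21 mice. The 10 TG mice were rNLS8 animals, which carry both NEFH-tTA and tetO-hTDP-43ΔNLS and make human TDP-43 without a nuclear localization signal once doxycycline is withdrawn. The 11 WT mice were littermates with only 1 of the transgenes, and which one is not given. The neurofilament heavy chain promoter restricts the transgene almost wholly to neurons. Every mouse, TG or WT, had received a single intracerebroventricular dose of 350 µg non-targeting antisense oligonucleotide (ASO) in 10 µL when 17 to 19 weeks old. The doxycycline diet (200 mg/kg) was stopped in every mouse 2 weeks later, and tissue was taken after a further 3 weeks. The labels assign 4 WT and 3 TG mice to batch A and 7 WT and 7 TG mice to batch B, which were separate cohorts. The labels give neither the sex of a mouse nor the time of day at which its tissue was taken.

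The mammalian clock is a loop of transcription and repression. CLOCK or NPAS2 pairs with BMAL1, encoded by Arntl, and drives Per, Cry, Nr1d and PAR bZIP genes from E-boxes, after which PER and CRY proteins return to the nucleus and silence that drive. REV-ERB proteins repress Arntl through ROR elements, and DBP, TEF and HLF carry the rhythm to output genes through D-boxes. Transcripts of this loop cycle over the day in most tissues, and in cortex some of them also respond to neuronal activity and to glucocorticoids.

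RefSeq start windows for GRCm38.p6, which run from 250 bases before to 50 bases after a gene's start, were given for 9 of the 10 genes. Per2 had no such window. The letters searched on both strands were the E-box CACGTG, the E-prime box CACGTT, the D-box TTATGTAA or TTACGTAA, the ROR element TAGGTCA and the cAMP response element (CRE) TGACGTCA. Among 32851 windows of the same length, 7.15% held the E-box, 4.68% the E-prime box, 1.06% the D-box, 2.61% the ROR element and 1.79% the CRE. Each motif was counted on its own, and no matches overlapped in the windows of these genes. The windows of Tef and Hlf are shown because these genes had the widest gap between genotypes, and those of Per3 and Cry1 because they held 2 matches each. They are written in the direction of the gene, with the matched letters in capitals. Tef lies on the plus strand at chr15:81802423-81802722, Hlf on the minus strand at chr11:90390868-90391167, Per3 on the minus strand at chr4:151044616-151044915 and Cry1 on the minus strand at chr10:85185005-85185304.
Tef: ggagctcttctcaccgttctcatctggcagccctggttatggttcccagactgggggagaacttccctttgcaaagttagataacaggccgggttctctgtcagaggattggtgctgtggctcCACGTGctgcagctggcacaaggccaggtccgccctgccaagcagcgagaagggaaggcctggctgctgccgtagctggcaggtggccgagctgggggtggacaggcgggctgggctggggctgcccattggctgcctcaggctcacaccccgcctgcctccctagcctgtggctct
Hlf: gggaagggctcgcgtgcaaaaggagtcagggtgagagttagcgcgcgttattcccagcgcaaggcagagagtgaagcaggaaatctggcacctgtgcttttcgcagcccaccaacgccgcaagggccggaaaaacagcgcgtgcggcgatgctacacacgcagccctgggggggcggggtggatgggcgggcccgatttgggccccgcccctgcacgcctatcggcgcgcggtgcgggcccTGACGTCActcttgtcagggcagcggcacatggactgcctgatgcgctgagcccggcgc
Per3: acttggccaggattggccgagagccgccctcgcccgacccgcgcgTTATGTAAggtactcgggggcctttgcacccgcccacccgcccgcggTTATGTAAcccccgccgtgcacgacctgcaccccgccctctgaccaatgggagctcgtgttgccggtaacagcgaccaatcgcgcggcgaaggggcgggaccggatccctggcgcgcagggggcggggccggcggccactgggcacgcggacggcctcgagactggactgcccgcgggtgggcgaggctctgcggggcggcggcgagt
Cry1: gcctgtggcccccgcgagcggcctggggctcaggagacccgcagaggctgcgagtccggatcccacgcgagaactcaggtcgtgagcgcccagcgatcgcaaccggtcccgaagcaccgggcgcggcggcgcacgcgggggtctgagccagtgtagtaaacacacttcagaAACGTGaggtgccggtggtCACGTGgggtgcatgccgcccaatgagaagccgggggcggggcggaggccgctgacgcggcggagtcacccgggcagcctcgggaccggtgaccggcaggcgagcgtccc

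The capitals in the Tef window are an E-box from -127 to -122, counted from the start with -1 for the base before it, and the window of a second start of Tef had an E-box from -138 to -133. The Hlf window held no E-box, and its capitals are a CRE from -9 to -2. Per3 held a pair of D-boxes, from -205 to -198 and from -158 to -151. Cry1 held an E-prime box from -79 to -74, read as AACGTG on the printed strand, and an E-box from -60 to -55. Among the windows not printed, that of the first start of Per1 held an E-box from -166 to -161, that of Cry2 an E-prime box from -166 to -161 and that of Nr1d1 an E-prime box from -28 to -23. None of these letters was found in the windows of Nr1d2 and Dbp. A match describes the letters of a window and does not show that a factor binds there.

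Each mouse contributed between 20700912 and 22263809 read counts, with a median of 21076278 in WT and 21451125 in TG mice. Tardbp counts, on which reads of the human transgene could align in part, were 153% of WT in TG mice (log2 difference 0.62, standard error 0.071, adjusted p = 1.50e-07 by the quasi-likelihood test of edgeR). In batch B the TG mice had 4405 to 5053 and the WT mice 2507 to 2827 normalised counts of Tardbp. In batch A the genotypes overlapped, with 2363 to 3091 in TG and 2253 to 2650 in WT mice, and the log2 difference was 0.26 (adjusted p = 0.191 from edgeR). The overlap came from the library labelled TG replicate 9, whose 2363 Tardbp counts lay inside the WT range of its batch and whose 1477 counts on a further copy of Tardbp lay below every WT mouse, so that Tardbp did not bear out its label. Its 358 normalised counts of Plin4 were in turn the highest of all 21 mice, against 24.5 to 63.7 in WT mice of batch A. The main values of the 10 genes are also given without this library. It stood apart from the other libraries in a second way. Across 16149 genes with a known exon length, its deviation from the other TG mice had a Spearman correlation with exon length of -0.48, against -0.18 to 0.33 in the other 20 mice. Xist was above 1000 normalised counts in all 7 mice of batch A, in 3 of 7 WT and in 1 of 7 TG mice of batch B, and below 100 in the others. In the pooled tissue, 8154 of 18248 tested genes differed between genotypes, which was 44.7%. Of these, 4190 (23.0%) were higher and 3964 (21.7%) were lower in TG mice, and with scaling to library size alone the split was 5832 higher and 2752 lower.

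Of the 10 clock genes, 5 passed the threshold of the same fit, an adjusted p below 0.05 over all genes tested. Cry2 was higher, and Per3, Dbp, Tef and Hlf were lower. The calls for Dbp and Per3 were lost in 11 and 12 of 21 fits that left out 1 mouse each, and both were lost with Xist as a covariate, with no filter on low counts and with scaling to library size alone, so that 3 to 5 of the 10 genes passed on leaving out 1 mouse. The share of 5 in 10 is printed beside the background of 44.7% and is not a result, since the genes were selected on this contrast. The median log2 difference of the 10 genes was -0.12, beside -0.00 over all genes tested. The values of all WT and all TG mice lay apart without overlap for 2 of the 10, Tef and Hlf, and for 7.65% of all genes tested.

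**Figure D1:**
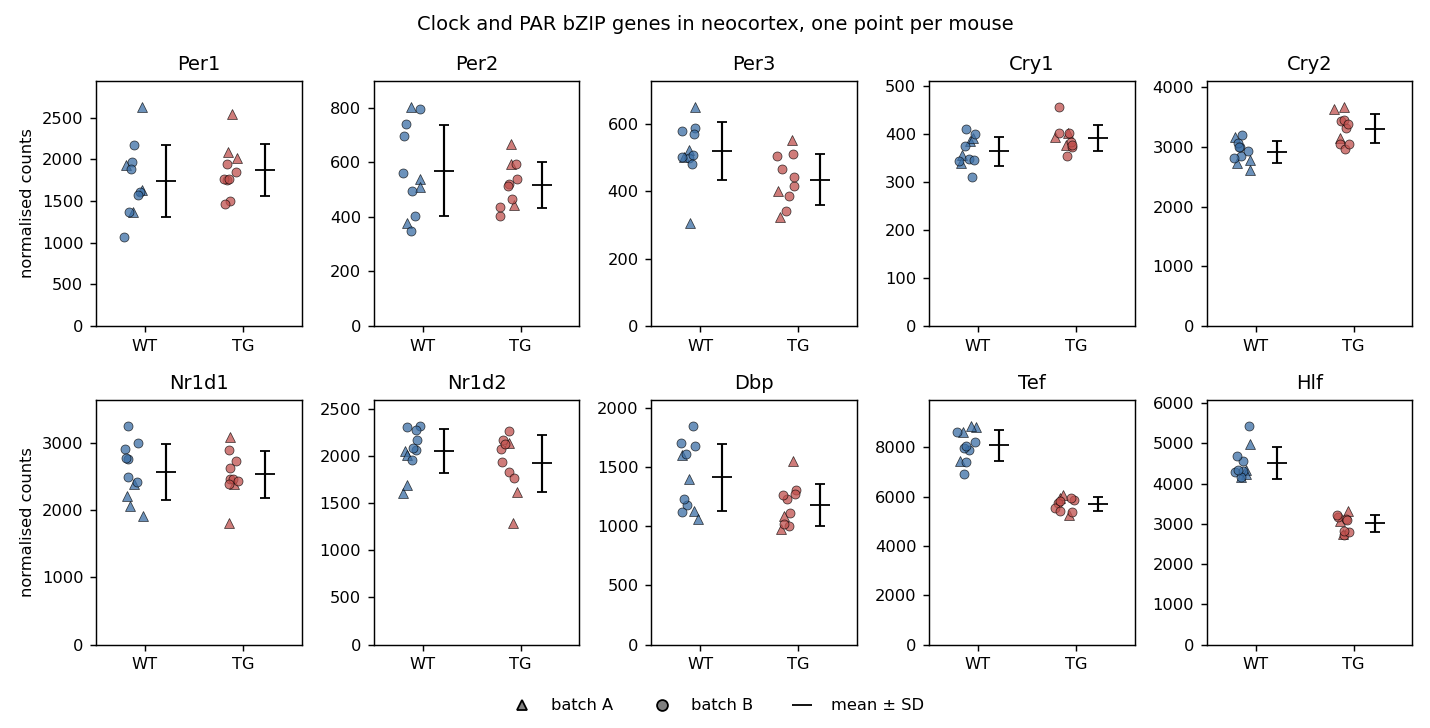
Normalised counts (y axis, from 0) of the 10 clock genes in each of 11 WT (blue) and 10 TG (red) mice, with triangles for batch A, circles for batch B and the mean ± SD beside the points. Tef and Hlf of every TG mouse lie below every WT mouse, with TG mice between 5237 and 6053 and between 2727 and 3322, whereas the other genes overlap.

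Tef, a PAR bZIP activator of D-box genes, lies on chromosome 15 of GRCm38.p6 from 81802673 to 81826863. Normalised counts, in which each library is scaled by its TMM-adjusted size to a common depth, ranged from 6933 to 8879 in WT mice with a median of 8043. In TG mice they ranged from 5237 to 6053 with a median of 5784. The highest TG mouse was below the lowest WT mouse. The means were 8080 ± 639 (SD, n = 11) in WT and 5698 ± 281 (SD, n = 10) in TG mice. The log2 difference was -0.50 (standard error 0.044), or 70.8% of the WT level, and -0.48 without the library labelled TG replicate 9.

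Hlf, the PAR bZIP factor best known from its fusion in leukaemia and also abundant in brain, lies on chromosome 11 from 90336535 to 90390917. WT mice had between 4153 and 5436 normalised counts with a median of 4329. TG mice had between 2727 and 3322 with a median of 3082. Here too the groups did not overlap. The means were 4502 ± 399 (SD, n = 11) and 3012 ± 214 (SD, n = 10), a log2 difference of -0.58 (standard error 0.052) or 66.9% of the WT level, and -0.58 as well without the library labelled TG replicate 9.

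Dbp, a PAR bZIP gene with a large daily rhythm in many tissues, lies on chromosome 7 from 45705100 to 45710203. WT mice had between 1060 and 1850 normalised counts with a median of 1402, and TG mice between 980 and 1553 with a median of 1171. The groups overlapped, with 3 TG mice below every WT mouse and 5 WT mice above every TG mouse. The means were 1416 ± 283 (SD, n = 11) and 1182 ± 178 (SD, n = 10), a log2 difference of -0.26 (standard error 0.10). The highest TG value, 1553, came from the library labelled TG replicate 9, and without this library the log2 difference was -0.34.

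The Period genes encode the PER subunits of the repressor complex. Per3, on chromosome 4 from 150997018 to 151044707, had between 307 and 650 normalised counts in WT mice with a median of 509. TG mice had between 323 and 552 with a median of 429. The groups overlapped over most of their range. The means were 520 ± 87.2 (SD, n = 11) and 435 ± 75.2 (SD, n = 10), a log2 difference of -0.26 (standard error 0.10). The lowest TG value was that of the library labelled TG replicate 9, without which the log2 difference was -0.22 and Per3 did not pass the threshold. A second row of the table for a further copy of Per3 held 7739 counts in all mice together and gave -0.25 (standard error 0.10). Reads shared by both rows may have been split between them, so the level of Per3 is uncertain.

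Per1, a Period gene known to respond to neuronal activity and glucocorticoids, lies on chromosome 11 from 69095108 to 69109965. It ranged from 1064 to 2627 normalised counts in WT mice (median 1633) and from 1471 to 2549 in TG mice (median 1808). All 10 TG mice lay within the WT range. The log2 difference was 0.11 (standard error 0.11). Per2, on chromosome 1 from 91415977 to 91459351, ranged from 348 to 802 in WT mice (median 538) and from 403 to 669 in TG mice (median 516). Again all 10 TG mice lay within the WT range, and the log2 difference was -0.14 (standard error 0.14). Neither Per1 nor Per2 passed the threshold, and without the library labelled TG replicate 9 they gave 0.11 and -0.11. Leaving out each mouse in turn gave 0.06 to 0.17 for Per1 and -0.19 to -0.07 for Per2.

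Cry2, which encodes a cryptochrome of the repressor complex, lies on chromosome 2 from 92403646 to 92434085 and was the only one of the 10 genes that passed the threshold towards higher counts. WT mice had between 2616 and 3197 normalised counts with a median of 2936. TG mice had between 2974 and 3668 with a median of 3355, and 6 of 10 were above every WT mouse. The means were 2926 ± 184 (SD, n = 11) and 3312 ± 248 (SD, n = 10), a log2 difference of 0.18 (standard error 0.046) or 113% of WT, and 0.16 without the library labelled TG replicate 9. Cry1, its paralog on chromosome 10 from 85131700 to 85185054, ranged from 311 to 410 in WT (median 357) and from 355 to 456 in TG mice (median 389). These ranges overlapped, the log2 difference was 0.11 (standard error 0.053), and Cry1 did not pass the threshold. It passed with scaling to library size alone (0.18) and without WT replicate 5 (0.13).

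The nuclear receptors REV-ERBα and REV-ERBβ are encoded by Nr1d1 and Nr1d2. Nr1d1, on chromosome 11 from 98767932 to 98775377, ranged from 1912 to 3254 normalised counts in WT mice (median 2489) and from 1814 to 3084 in TG mice (median 2465). The log2 difference was -0.02 (standard error 0.076), and 0.05 with scaling to library size alone. Nr1d2, on chromosome 14 from 18204056 to 18239106, ranged from 1612 to 2323 in WT mice (median 2064) and from 1290 to 2264 in TG mice (median 2007), with a log2 difference of -0.11 (standard error 0.069). The groups overlapped for both genes. The library labelled TG replicate 9 had the highest Nr1d1 and the lowest Nr1d2 value of all TG mice, and without it the log2 differences were -0.10 and -0.06. Neither gene passed the threshold with or without it, and Nr1d2 passed without TG replicate 10 (-0.16).

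**Figure D2:**
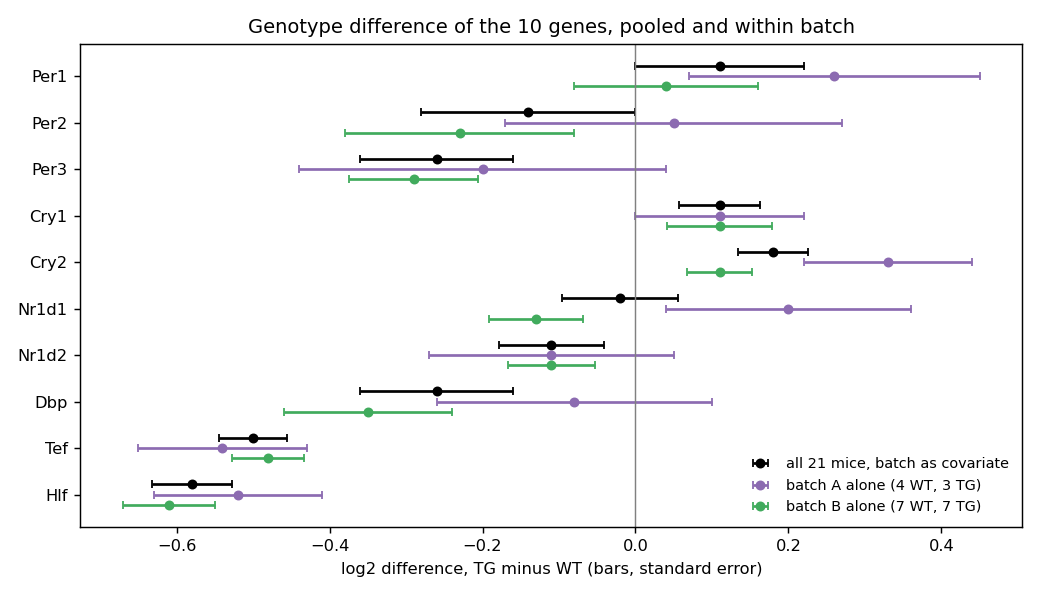
Log2 difference of TG minus WT mice (x axis, bars are standard errors) for each of the 10 clock genes over all mice with batch as covariate (black), in batch A alone (violet) and in batch B alone (green). Tef and Hlf lie near -0.5 or lower in each fit, Cry2 is above 0 in each, and Per2 and Nr1d1 fall on either side of 0 in the 2 batches.

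The batches were next taken one at a time. Tef differed by -0.54 (standard error 0.11) in batch A and by -0.48 (standard error 0.047) in batch B on the log2 scale, and Hlf by -0.52 (0.11) and -0.61 (0.060). In batch A, the TG mice had 5237 to 6053 and the WT mice 7450 to 8879 normalised Tef counts, and in batch B 5371 to 5965 and 6933 to 8632. Cry2 was higher by 0.33 (0.11) in batch A and by 0.11 (0.043) in batch B, and did not pass the threshold in either batch alone. Dbp gave -0.08 (0.18) in batch A and -0.35 (0.11) in batch B. Per3 gave -0.20 (0.24) and -0.29 (0.084). Nr1d1 gave 0.20 (0.16) in batch A and -0.13 (0.061) in batch B, and Per2 gave 0.05 (0.22) and -0.23 (0.15), so both changed sign. Without the library labelled TG replicate 9, batch A (4 WT and 2 TG mice) gave -0.31 (0.16) for Dbp, -0.01 (0.13) for Nr1d1, 0.20 (0.24) for Per2 and -0.04 (0.26) for Per3, and -0.48 (0.11) for Tef, -0.52 (0.12) for Hlf and 0.29 (0.11) for Cry2. The gap between batches for Dbp and the positive value of Nr1d1 in batch A thus came with this library. Per1 gave 0.26 (0.19) and 0.04 (0.12), Cry1 0.11 (0.11) and 0.11 (0.069), and Nr1d2 -0.11 (0.16) and -0.11 (0.057), with 0.05 (0.14) for Nr1d2 in batch A without that library.

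Whether the genotype difference itself differed between the batches was tested with their interaction. None of the 10 genes passed, with interaction values from -0.30 for Nr1d1 to 0.09 for Tef on the log2 scale and a smallest adjusted p of 0.875. Without the library labelled TG replicate 9 none passed either, and the value was -0.09 for Nr1d1, -0.01 for Dbp and -0.40 for Per2, then the most negative of the 10. Over all 18248 genes the edgeR interaction test called 0 genes (0%), with 1030 genes at an unadjusted p below 0.05 but none of the 10 clock genes among them, and DESeq2 called 1. The test could detect large differences only. On simulated counts it recovered 85 of 100 genes with an interaction of 1 and 36 of 100 with an interaction of 0.5 on the log2 scale.

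The difference between batches was not used to choose the genes and was tested in the same fit, where 23.3% of all genes differed. Of the 10 clock genes, 2 differed and 8 did not pass the threshold. These were the REV-ERB genes. Nr1d1 was higher in batch B, with a log2 difference of 0.25 (standard error 0.082, adjusted p = 0.0313 from edgeR). The 4 WT mice of batch A had 1912 to 2382 and the 7 WT mice of batch B 2423 to 3254 normalised counts of Nr1d1, so these WT mice did not overlap. In TG mice the batches overlapped, with 1814 to 3084 in batch A and 2388 to 2900 in batch B, and this overlap rested on the library labelled TG replicate 9 (3084). The other TG mice of batch A had 1814 and 2386, of which 2386 lay only just below the lowest TG mouse of batch B with 2388. In WT mice alone, the log2 difference of Nr1d1 between batches was 0.39 (adjusted p = 0.0113 from edgeR).

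Nr1d2 was likewise higher in batch B by 0.25 (standard error 0.074, adjusted p = 0.0180 from edgeR), and by 0.24 in WT mice alone (adjusted p = 0.0584). WT mice had 1612 to 2060 normalised counts of Nr1d2 in batch A and 1955 to 2323 in batch B. The call for Nr1d1 was lost without TG replicate 8 (log2 difference 0.20, adjusted p = 0.0913 from edgeR), WT replicate 8 (0.22, 0.0614), WT replicate 10 (0.24, 0.0584) or WT replicate 11 (0.21, 0.0815), all of batch A. The call for Nr1d2 was lost without the library labelled TG replicate 9 (0.19, 0.0503), whereas Nr1d1 gave 0.35 (adjusted p = 0.000889 from edgeR) without it. Per1 had a log2 difference between batches of -0.27 (standard error 0.11) and did not pass (adjusted p = 0.0921 from edgeR), but passed without WT replicate 5 (-0.32, adjusted p = 0.0435) or WT replicate 8 (-0.34, adjusted p = 0.0289). Arntl, which REV-ERB proteins repress, was higher in batch B by 0.17 (adjusted p = 0.0369 from edgeR), but its difference in WT mice alone was 0.10 and did not pass (adjusted p = 0.353). The batches also differed in the number of mice with high Xist, given above. With the level of Xist as a covariate, the batch difference was 0.31 for Nr1d1 (adjusted p = 0.0780 from edgeR) and 0.35 for Nr1d2 (adjusted p = 0.0260).

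Levels of different genes were compared per kilobase of merged exon. In WT mice, Tef was the most abundant of the 10 genes by mean with 1027 ± 81.2 normalised counts per kilobase (SD, n = 11), ahead of Nr1d1 with 833 ± 135 and Hlf with 674 ± 59.8. In single mice, Tef (881 to 1129) overlapped with Nr1d1 (621 to 1058), and Nr1d1 with Hlf (622 to 814). Dbp with 473 ± 94.7 and Cry2 with 463 ± 29.1 differed by less than their spread. Nr1d2 with 379 ± 43.1 and Per1 with 310 ± 76.9 overlapped, with 298 to 429 and 189 to 467 in single mice, and their difference was larger than the SD of Nr1d2 but smaller than that of Per1. Cry1 with 109 ± 9.13 and Per2 with 97.3 ± 28.3 overlapped as well, and Per3 had 54.1 ± 9.07. With both rows of Per3 summed it had 95.6 ± 15.8, which differed from Per2 by less than their spread, so its place in the order is uncertain. In TG mice Tef had 724 ± 35.7 (SD, n = 10) and Nr1d1 822 ± 112, which differed by less than the spread of Nr1d1. Hlf in TG mice had 451 ± 32, below Cry2 at 524 ± 39.2 in the same mice.

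**Figure D3:**
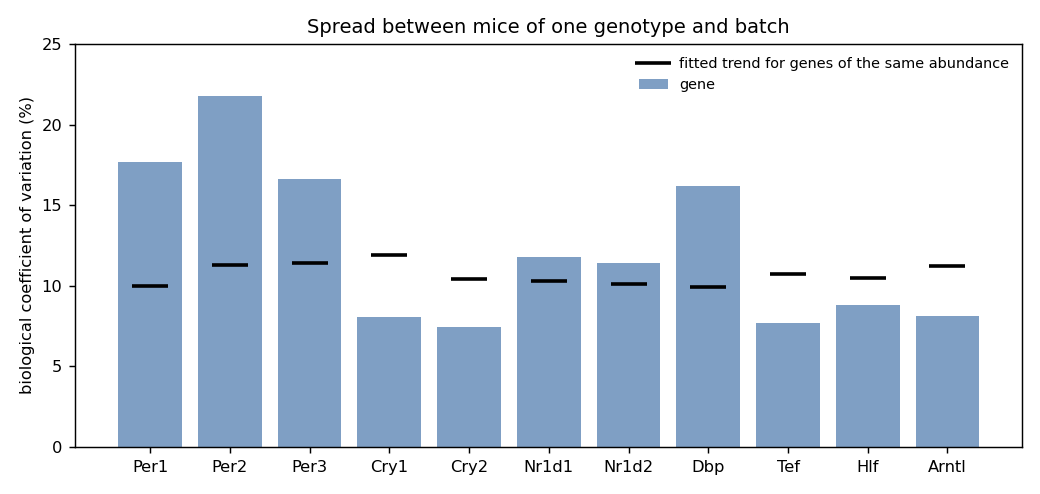
Biological coefficient of variation between mice of one genotype and batch (y axis, percent, from 0) for the 10 clock genes and Arntl, with black marks for the fitted trend at the abundance of each gene. Per1, Per2, Per3 and Dbp stand well above their marks, whereas Cry1, Cry2, Tef and Hlf are below.

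The genes fell apart by how much they varied between mice of one genotype and batch. This was measured as edgeR's biological coefficient of variation, the spread between mice beyond counting error, and set beside the trend of genes of equal abundance. Per2 had 21.8% against a trend of 11.3%, which placed it at percentile 97.3 of all genes tested. Per1 had 17.7% against 9.96% (percentile 96.3), Dbp 16.2% against 9.94% (percentile 95.1) and Per3 16.6% against 11.4% (percentile 92.9). Nr1d1 and Nr1d2 were slightly above their trend with 11.8% and 11.4% (percentiles 83.2 and 82.8). Tef with 7.67% (percentile 30.3), Hlf with 8.79% (percentile 52.7), Cry2 with 7.46% (percentile 30.5) and Cry1 with 8.03% (percentile 22.4) were below it. Over the WT mice of both batches Per1 spanned a 2.47-fold range, with 1.92-fold in batch A and 2.04-fold in batch B. Per2 spanned a 2.30-fold range over these mice, with 2.12-fold and 2.29-fold within the batches. Over all TG mice the ranges were 1.73-fold for Per1 and 1.66-fold for Per2. The coefficients of variation were not computed without the library labelled TG replicate 9.

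To describe which genes varied together, the mean of each genotype and batch was subtracted, which removes the contrast used to choose the genes. Over the 45 pairs of these genes and their 10 pairs with Ciart, an E-box gene that encodes a repressor of CLOCK and BMAL1, the pair correlations were tested by permutation within genotype and batch. This family was set after the data had been seen. Of the 55 pairs, 9 passed an adjusted p of 0.05 for Pearson's r, all of them positive, and 5 of these were pairs of the 10 genes. The median r over the 45 pairs was 0.35, and 35 were positive. Without the library labelled TG replicate 9, 12 of the 55 pairs passed over 20 mice, all positive, of which 8 were pairs of the 10 genes and 8 had passed with it. The median r over the 45 pairs was then 0.38, and 38 were positive. How often pairs of other genes vary together in these values was not measured. Genes outside the list reached r of 0.96 with a member, so these counts are not read as a trait of clock genes.

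Per1 and Per2 varied together over the 21 mice (r = 0.79, adjusted permutation p = 0.0124, rho = 0.72, adjusted p = 0.0271), with r = 0.82 in batch A and 0.78 in batch B. Without the 2 mice farthest from the median of Per1, r was 0.60. Nr1d1 and Dbp also varied together (r = 0.74, adjusted permutation p = 0.0124, rho = 0.76, adjusted p = 0.0142), with r = 0.84 in batch A and 0.68 in batch B, and r = 0.74 without the 2 farthest mice. The third pair was Cry2 and Nr1d1 (r = 0.70, adjusted permutation p = 0.0124, rho = 0.73, adjusted p = 0.0142), with 0.69 and 0.75 within the batches and 0.70 without the 2 farthest mice.

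Tef varied with Per2 (r = 0.68, adjusted permutation p = 0.0332, rho = 0.66, adjusted p = 0.0464), with 0.84 in batch A, 0.58 in batch B and 0.61 without the 2 farthest mice. Tef also varied with Nr1d2 (r = 0.63, adjusted permutation p = 0.0245), but the rank correlation of this pair missed the threshold (rho = 0.61, adjusted p = 0.0748) and r was 0.42 without the 2 farthest mice. Per3, Cry1 and Hlf were in none of the pairs that passed. Leaving out the library labelled TG replicate 9 gave r of 0.81 for Per1 and Per2, 0.67 for Nr1d1 and Dbp, 0.75 for Cry2 and Nr1d1 and 0.53 for Nr1d2 and Tef, all of which still passed for Pearson's r, and 0.65 for Per2 and Tef, which did not. The rank correlation of Per1 and Per2 then missed the threshold (rho = 0.67, adjusted permutation p = 0.0551).

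Another 4 pairs passed for Pearson's r only without this library. Per2 and Dbp went from r = 0.55 to 0.79 (adjusted permutation p = 0.164 and 0.0126), and Per2 and Nr1d1 from 0.37 to 0.73 (adjusted permutation p = 0.286 and 0.00862). Dbp and Tef went from 0.36 to 0.66 (adjusted permutation p = 0.334 and 0.0388), and Dbp and Nr1d2 from 0.14 to 0.57 (adjusted permutation p = 0.825 and 0.0388). As rank correlations without this library, rho was 0.78 for Per2 and Dbp (adjusted permutation p = 0.0174), 0.75 for Per2 and Nr1d1 (0.0115) and 0.69 for Dbp and Tef (0.0288), and Dbp and Nr1d2 did not pass (rho = 0.48, adjusted permutation p = 0.0773). Per3, Cry1 and Hlf were again in no pair that passed.

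Ciart varied most closely with Dbp (r = 0.79, adjusted permutation p = 0.0124, rho = 0.83, adjusted p = 0.0121), with 0.76 in batch A, 0.87 in batch B and 0.75 without the 2 farthest mice. It varied with Nr1d1 as well (r = 0.66, adjusted permutation p = 0.0124, rho = 0.74, adjusted p = 0.0142), with 0.60 and 0.77 within the batches and 0.78 without the 2 farthest mice. Its relation with Per1 (r = 0.75, adjusted permutation p = 0.0164) and with Per2 (r = 0.69, adjusted permutation p = 0.0291) missed the threshold as a rank correlation (adjusted p = 0.113 for both). Within the batches r was 0.82 and 0.74 for Per1 and 0.55 and 0.90 for Per2. In the 11 WT mice r with Ciart was 0.89 for Per1 and 0.90 for Per2, and in the 10 TG mice it was -0.02 and -0.31. These values turned on the library labelled TG replicate 9, without which r in the other 9 TG mice was 0.25 and 0.46. Over the 20 mice without it, Ciart had r = 0.86 and rho = 0.78 with Per2 (adjusted permutation p = 0.00055 and 0.0115), r = 0.83 and rho = 0.67 with Per1 (adjusted permutation p = 0.00862 and 0.0603), r = 0.62 with Nr1d1 (adjusted permutation p = 0.0188) and r = 0.76 with Dbp (adjusted permutation p = 0.0126). The difference between genotypes in these correlations was not tested.

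**Figure D4:**
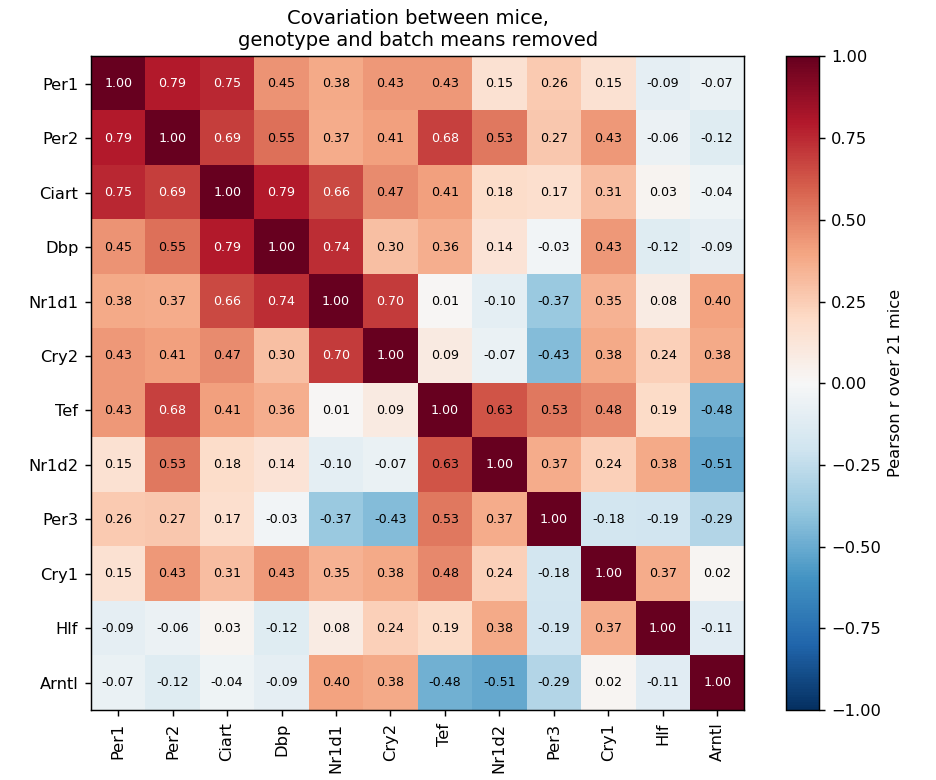
Pearson correlation (colour scale from -1 to 1) between the 10 clock genes, Ciart and Arntl over 21 mice after the mean of each genotype and batch was removed. Per1, Per2, Ciart, Dbp, Nr1d1 and Cry2 form the warm block at the upper left, with r up to 0.79.

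Arntl peaks opposite to most of these genes over the day, so each gene was also correlated with Arntl in the same way. None of the 10 relations passed after adjustment. The strongest were Nr1d2 (r = -0.51, permutation p = 0.0375, adjusted p = 0.188, rho = -0.49, p = 0.0427, adjusted p = 0.214, and r = -0.47 without the 2 mice farthest from the median of Arntl) and Tef (r = -0.48, permutation p = 0.0326, adjusted p = 0.188, rho = -0.56, p = 0.0163, adjusted p = 0.163, and r = -0.38 without the same mice). Within batches A and B, r was -0.70 and -0.45 for Nr1d2 and -0.82 and -0.31 for Tef. Nr1d1 had a positive r of 0.40. Without the library labelled TG replicate 9, r was -0.37 for Nr1d2, -0.38 for Tef (adjusted permutation p = 0.422 for both) and 0.20 for Nr1d1.

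The genes outside the list that were most alike to each member over the 21 mice were sought among 14584 genes with a mean of at least 50 counts, again on values with genotype and batch means removed. Dbp was most like Chrm4 (r = 0.84), and Ciart was among its closest genes (0.79). Per1 was most like Stk40 (0.88), Nab2 (0.86) and Midn (0.85), and Per2 like P4ha1 (0.84). Nr1d1 was most like Tsnax (0.90), Nr1d2 like Ppp4r3a (0.94) and Cry2 like Sec14l1 (0.87). Per3 had the closest neighbours, with r of 0.96 for Dnhd1, Nktr and Msantd2, and 0.95 for each without the library labelled TG replicate 9. Tef was most like a further copy of Desi2 (0.88), Hlf like Kif21a (0.81) and Cry1 like Notch4 (0.74). These are the highest of many values and carry no test.

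The rest of the clock was described with 27 genes from lists drawn up by role, some of them on more than one list. Of these, 12 differed between genotypes, with 4 higher and 8 lower in TG mice, beside 23.0% and 21.7% of all genes. Their median log2 difference was -0.07, beside -0.00 over all genes tested. Of the 4 genes of the positive limb, 2 fell and none rose. Npas2, the CLOCK paralog of forebrain, fell by 0.29 (log2, standard error 0.057, adjusted p = 0.000172 from edgeR). Arntl fell by 0.14 (standard error 0.054, adjusted p = 0.0420 from edgeR), a call that was lost in 11 of 21 fits that left out 1 mouse each (TG replicates 1, 5, 7, 8 or 10, WT replicates 3, 4, 6, 8, 9 or 11), with adjusted p up to 0.0967. Its log2 difference was -0.06 (adjusted p = 0.373) when counts were scaled to library size alone. Clock had a log2 difference of -0.07 and an adjusted p of 0.462, with 0.01 on scaling to library size alone.

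Of 3 genes that act on ROR elements or oppose the PAR bZIP factors at D-boxes, 1 rose and none fell, where 44.7% of all genes were called. Rora rose by 0.29 (standard error 0.10, adjusted p = 0.0224 from edgeR), but not without TG replicate 10 (log2 difference 0.22, adjusted p = 0.0708). Nfil3, the D-box repressor, had a log2 difference of -0.16 and an adjusted p of 0.214. Of the 3 further E-box repressors, Bhlhe40 fell by 0.32 on the log2 scale (adjusted p = 0.0141 from edgeR, and 0.0554 with scaling to library size alone), whereas Bhlhe41 (0.05, adjusted p = 0.495) and Ciart (0.02, adjusted p = 0.909) did not pass.

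**Figure D5:**
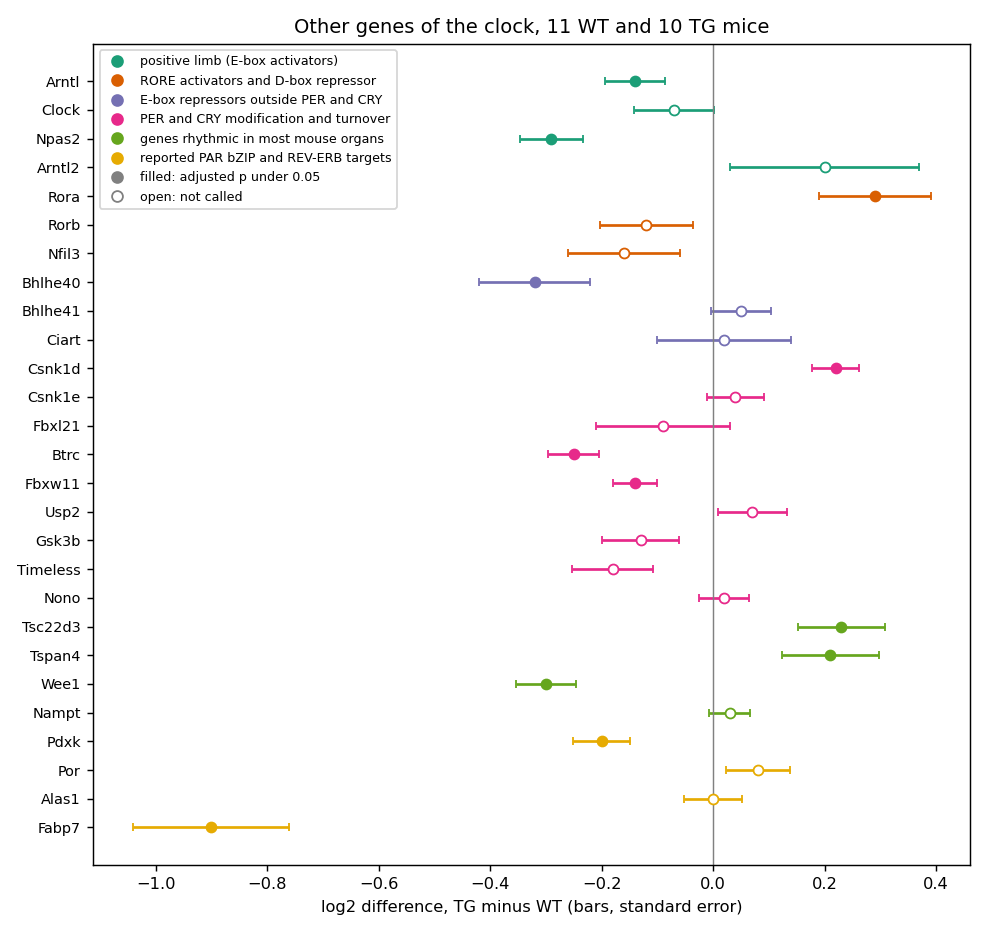
Log2 difference of TG minus WT mice (x axis, bars are standard errors, 11 WT and 10 TG mice) for 27 clock genes outside the 10, coloured by the first list that holds the gene, with filled points for an adjusted p below 0.05 in edgeR. Of the filled points, 8 lie below 0, with Fabp7 farthest at -0.90, and 4 lie above.

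Proteins that modify PER and CRY or mark them for decay were on a list of 9, of which 2 fell and 1 rose. Among all genes 44.7% were called either way, and the called shares of this list and the next 2 lay around it. These counts are therefore not a result about the lists. The ubiquitin ligase subunits Btrc and Fbxw11, which target PER, fell by 0.25 (adjusted p = 0.000105) and 0.14 (adjusted p = 0.00694) on the log2 scale in edgeR. With scaling to library size alone, Fbxw11 gave -0.06 (adjusted p = 0.218). Csnk1d, a kinase of PER, rose by 0.22 (standard error 0.042, adjusted p = 0.000160 from edgeR). Among 8 genes that cycle in most mouse organs, Wee1 (log2 difference -0.30, adjusted p = 8.10e-05) and Arntl fell, Tsc22d3 (0.23, adjusted p = 0.0197) and Tspan4 (0.21, adjusted p = 0.0479) rose, and 4 did not pass. The call for Tsc22d3 was lost without TG replicate 8 (0.19, adjusted p = 0.0506), and that for Tspan4 in 13 of 21 fits that left out 1 mouse (TG replicates 4, 5, 7, 8, 9 or 10, WT replicates 1, 3, 4, 6, 8, 9 or 11), with adjusted p up to 0.107. Tspan4 gave 0.49 in batch A and 0.08 in batch B (adjusted p = 0.0587 and 0.546 from edgeR). Of 4 reported targets of PAR bZIP or REV-ERB factors, Pdxk, the pyridoxal kinase gene, fell by 0.20 (log2, standard error 0.051, adjusted p = 0.00312 from edgeR), and the brain lipid-binding protein gene Fabp7 fell by 0.90 (standard error 0.14, adjusted p = 1.10e-05 from edgeR). Por (0.08, adjusted p = 0.303) and Alas1 (0.00, adjusted p = 0.964) did not pass.

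Glucocorticoids and neuronal activity are inputs to Per1 in other settings, so genes that follow either were set beside it. Of 10 glucocorticoid-responsive genes, 4 rose and none fell, beside 23.0% higher and 44.7% called either way among all genes. They were Tsc22d3, Zbtb16 (0.37, adjusted p = 0.0208), Cdkn1a (0.90, adjusted p = 1.79e-08), which also answers to DNA damage, and Plin4 (1.89, adjusted p = 1.53e-07), a lipid droplet gene that the study had examined in these mice. The call for Zbtb16 was lost without TG replicate 10 (0.27, adjusted p = 0.0595). In batch A alone Zbtb16 gave 0.74 and Tsc22d3 0.44 (adjusted p = 0.0243 and 0.0787 from edgeR), and in batch B alone they gave 0.18 and 0.12 (adjusted p = 0.315 and 0.225). Plin4 gave 2.91 and 1.37 in batches A and B, and passed in both. Fkbp5, a common readout of glucocorticoid action, had a log2 difference of 0.03 and an adjusted p of 0.748. Of 8 immediate early genes, 5 fell and none rose, beside 21.7% lower among all genes, with log2 differences of -0.97 for Fos, -0.54 for Junb, -1.10 for Egr1, -1.57 for Arc and -0.92 for Npas4 and adjusted p from 6.44e-06 to 0.0296 in edgeR. The call for Junb was lost in 5 of 21 fits that left out 1 mouse, namely TG replicates 1, 9 and 10 and WT replicates 5 and 9, with adjusted p up to 0.0891, and with scaling to library size alone (0.0633). In batch B alone Fos gave -0.71 (adjusted p = 0.110) and Junb -0.38 (adjusted p = 0.212), and in batch A alone -1.49 and -0.86 (adjusted p = 0.0310 and 0.0566). How Per1 moved relative to these genes was not tested.

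Marker genes of cell types were counted by list, beside 44.7% of all genes called, 21.7% lower and 23.0% higher in TG mice. The lists of neocortical excitatory neurons, of dentate gyrus and hippocampus and of endothelium lay near that share. For single genes, 7.65% lay apart without overlap, and no such share was worked out for sums. Of 7 neuron markers 5 fell and none rose, and their summed level was 133549 to 164363 normalised counts in WT and 101881 to 126500 in TG mice, without overlap. Of 7 markers of neocortical excitatory neurons, 2 fell, 1 rose and 4 did not pass, and the sums overlapped with 34722 to 47865 in WT and 35219 to 53542 in TG mice. Of 6 astrocyte markers, 5 fell and Gfap rose, with sums of 86928 to 114046 and 68359 to 95786. Of 7 microglia markers 5 rose and 1 fell, with sums of 7412 to 8542 and 7809 to 11473, and none of 6 oligodendrocyte markers passed in edgeR, with sums of 91421 to 153728 and 87506 to 155609. Of 5 markers of dentate gyrus and hippocampus 2 fell, with sums of 4038 to 6052 in WT and 2632 to 3873 in TG mice, without overlap. Wfs1 and Neurod6 had the highest medians over all mice (2054 and 976), ahead of Zbtb20 (659), Prox1 (386) and Dsp (15.1). This sum is therefore not read as an amount of hippocampal tissue. Of 5 endothelial markers 2 fell, with sums of 4489 to 5596 and 3849 to 4742. Choroid plexus markers, of which none of 4 passed, spanned 405 to 46755 in WT and 592 to 23893 in TG mice. In pooled tissue, fewer cells of a type and less RNA per cell cannot be told apart, and the part of these shifts in the values of Tef, Hlf and the other clock genes was not tested. Of 6 markers of the suprachiasmatic nucleus, the master clock, Six6 and Lhx1 were too low to be tested, and all 6 together summed to 751 to 1098 normalised counts in WT and 647 to 1018 in TG mice. Vip and Rgs16 had the highest medians of the 6 over all mice (549 and 210), and Avp had 11.5. This sum is likewise not read as an amount of that nucleus.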

How the data were processed

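Bulk RNAseq of mouse neocortex (mRNA libraries, paired reads of 100 bases) was analysed for 21 mice. Reads were aligned to GRCm38 by the authors, and the deposited values are raw counts, one row per gene symbol. The submitters' processing notes name HISAT, HISAT2, RSEM, Bowtie and Bowtie2 and mm10, and the role of each tool is not given in the sources used here. Rows for further copies of a symbol (2553, with 4.11% of counts) were kept. Genes were filtered with edgeR's default (minimum count 10, minimum total 15), normalised by TMM and tested in R 4.3.3 with the quasi-likelihood test of edgeR 4.0.16 with genotype and batch as terms, adjusted by Benjamini-Hochberg over 18248 genes (threshold 0.05). Covariation used log2 CPM (prior count 2) and 100000 two-sided permutations within genotype and batch (numpy 2.4.6). Replicates are separate mice. The members and the gene lists were chosen with earlier results of these data known. Named genes were the 10 members, genes of the fixed lists, the 3 genes most alike to each member, Tardbp and Xist. On simulated counts the genotype test recovered 94 of 100 genes changed by 0.5 and 100 of 100 changed by 1 on the log2 scale (18121 genes), and the batch test 85 and 100 of 100 (18127 genes). Alternatives were DESeq2 1.42.0, fits without batch, other scalings and filters, Xist as a covariate, each batch alone, removal of copy rows and leaving out each mouse. The batch difference in WT mice alone, the pairs of genes, with and without TG replicate 9, batch A without that mouse and the summed rows of Per3 were added after the data were seen. Some genes of the lists are not reported here. No mouse was left out. Depth lay between 20700912 and 22263809 counts.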

Additional observations from a re-analysis of the deposited data

Results flagged for a closer look

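The values of the 10 clock genes were searched for single mice far from their group, in all TG mice, the TG mice of batch B and the WT mice of batch A and of batch B, 40 groups of values in all. Chance flags about 1 in 20 groups, or 2.0 of 40, and 2 were found. Cry1 was highest in TG replicate 7 with 456 normalised counts, a gap to the next TG mouse of 0.524 of the range of the 10 TG mice. Hlf was highest in WT replicate 1 with 5436 normalised counts, a gap of 0.584 of the range of the 7 WT mice of batch B. Neither value changes whether Cry1 or Hlf passed the threshold between genotypes. Both are given as values only.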

How the results depend on the processing

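Tef, Hlf and Cry2 kept their direction under every alternative and passed the threshold in 21 of 21 fits that left out 1 mouse, with log2 differences of -0.52 to -0.48, -0.60 to -0.55 and 0.16 to 0.20. These fits reuse the contrast known when the genes were chosen and nearly all of its mice. The passes of the 10 genes are thus a description and not a test. Cry2 did not pass in batch A (0.33) or batch B (0.11) alone. Dbp passed in 10 of 21 such fits (-0.34 to -0.22) and was lost without TG replicates 2, 3, 6, 8 or 10 or WT replicates 3, 4, 5, 7, 9 or 10. Per3 passed in 9 of 21 (-0.33 to -0.21) and was lost without TG replicates 2, 3, 4, 7, 9 or 10 or WT replicates 3, 4, 6, 9, 10 or 11. With Xist as a covariate both were lost (Dbp -0.20, Per3 -0.23), as with no filter and with scaling to library size (-0.19 and -0.18). The number of the 10 genes called was 3 with no filter, 3 with Xist as a covariate, 2 in batch A alone and 3 to 5 on leaving out 1 mouse. Over all genes, 8013 of 35145 tested were called with no filter and 7997 of 18248 with Xist as a covariate. In batch A alone 2195 of 18580 were called, and 7805 to 8363 on leaving out 1 mouse. Of the 27 other clock genes, 1 was called in batch A alone and 10 to 13 on leaving out 1 mouse. Between batches, 1 of the 10 genes was called with upper-quartile scaling, 1 with Xist as a covariate and 1 to 3 on leaving out 1 mouse. Over all genes, 4254 of 18248 were called between batches in the main fit, 4312 with upper-quartile scaling and 1470 with Xist as a covariate. On leaving out 1 mouse 3418 to 4821 were called. Signs changed in batch A alone for Per2 (0.05) and Nr1d1 (0.20), with scaling to library size for Nr1d1 (0.05) and Clock (0.01), and in batch B alone for Clock (0.001) and Ciart (-0.14). On leaving out 1 mouse Nr1d1 ranged from -0.10 to 0.01 and Ciart from -0.05 to 0.07. The causes were not tested. With only the 100 bases before the start, 3 member windows held a motif. No paired analysis was possible because the replicate numbers only name the mice. The lowest value of any of the 10 genes in any mouse was 307 normalised counts (Per3).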
